A study of Mus musculus with 8 samples.

Results

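The nuclear-encoded subunits of the respiratory chain were examined in CD4 single-positive thymocytes, T cells of the thymus that have been selected into the CD4 lineage. Members were genes with a single-symbol probe set whose symbol begins with one of the subunit names of complexes I to V (the Nduf subunits, Sdha to Sdhd, the Uqcr subunits and Cyc1, the Cox4 to Cox8 subunits and the Atp5 subunits), each read from its brightest probe set. The rule gave 81 of the 22180 genes with such a probe set: 31 in complex I, 4 in complex II, 9 in complex III, 19 in complex IV and 18 in complex V. The rule itself uses symbols and brightness and no measured difference, but it was chosen with earlier results of these data known. Ndufa4 and its paralogue Ndufa4l2 were placed in complex IV, since the NDUFA4 protein is now counted as a subunit of that complex. Pseudogenes Uqcrh-ps1 and Atp5c1-ps also match the rule. A further 10 probe sets name a matching subunit together with another gene and were not used here.

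RNA was taken from sorted CD4 single-positive thymocytes of C57BL/6 mice, 4 samples of wild-type cells (WT) and 4 that the labels call a Pggt1b knockout (KO), with 1 array for each sample. Pggt1b encodes the catalytic subunit of geranylgeranyl transferase type I, which attaches a lipid of the mevalonate pathway to small GTPases. The labels give neither the age of the mice, nor the deleted part of the gene, nor the promoter or cells in which it was deleted, and they name no treatment. Since the labels do not tie each replicate to its own mouse, each p-value reflects variation among these 8 samples alone, and that variation may be technical.

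The respiratory chain sits in the inner mitochondrial membrane. Complexes I and II pass electrons from NADH and succinate to coenzyme Q, complex III passes them on to cytochrome c, and complex IV to oxygen. Complexes I, III and IV pump protons, and complex V, the ATP synthase, uses the gradient to make ATP. Coenzyme Q carries an isoprenoid tail built from mevalonate pathway units, the same pathway that supplies the lipid for geranylgeranylation. Most subunits are encoded in the nucleus, a few in mitochondrial DNA, and all but complex II are built from both. Thymocytes and naive T cells draw on this chain for much of their ATP.

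Across the series the arrays were alike, with Pearson correlations over tested genes, which are not replicates, of 0.990 to 0.995 within a genotype and 0.985 to 0.990 between genotypes, and no 2 arrays held identical values. Pggt1b itself stood at log2 values of 8.35, 8.38, 8.29 and 8.36 in WT and 7.89, 7.57, 7.69 and 7.86 in KO, a difference of -0.59 ± 0.072 SE (adjusted p = 0.00141). Its probe set summarises the transcript and does not measure loss of the protein. All 9 measured markers of CD4 T cells, among them Cd4, Cd3e and Zbtb7b, lay above the intensity filter described below, and 0 of them were called (limma, with 1 lower and 0 higher at an unadjusted p under 0.05). The KO mean was nevertheless lower in 8 of these 9, or 88.9% against 59.1% of all tested genes, with a median difference of -0.04 log2. In 2 of them, Zap70 and Cd2, every KO array lay below every WT array. Of the B cell markers 1 of 5 passed the filter, of the myeloid and dendritic markers 4 of 8, of the epithelial, stromal and endothelial markers 6 of 8, and of the erythroid markers 0 of 1.

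Transcripts of some respiratory chain subunits were slightly lower in KO thymocytes, with at least 1 called subunit in each of the 5 complexes. A gene was tested where its mean log2 value over all arrays reached 5.56, the median of all probe sets, and was called at an adjusted p under 0.05 (limma, Benjamini-Hochberg over 11585 tested genes). Of 75 tested subunits 16 fell and 0 rose, so 21.3% fell, while 8.53% of all tested genes fell and 4.45% rose. In complexes I to V the shares that fell were 19.35%, 25%, 25%, 26.67% and 17.65%, from few subunits each. At an unadjusted p under 0.05, 34 subunits were lower and 2 higher. The falls were small. Those of the 16 called subunits ran from 1.13-fold to 1.24-fold, and no subunit differed by as much as 1.5-fold.

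The shift reached beyond the called genes. The KO mean lay below the WT mean in 64 of the 75 subunits, or 85.3%, against 59.1% of all tested genes. This share was not particular to the subunits. Among the lists described below it was 85.4% for assembly factors, 88.9% for the tricarboxylic acid cycle and 76.9% for the coenzyme Q group. It was 64.3% for inner membrane carriers, 63.2% for biogenesis regulators, 30% for subunits from mitochondrial DNA and 100% for cell cycle genes. The median difference of the subunits, KO minus WT, was -0.13 log2, a fall by 8.55%, and the median of all tested genes was -0.03 log2. In 29 subunits every KO array lay below every WT array, or 38.7% against a background of 13.5%, and in 0 subunits did every KO array lie above, against 6.79%. Averaged over the 75 subunits, the log2 level was 9.14, 9.22, 9.20 and 9.19 in the WT arrays and 9.07, 9.06, 9.06 and 9.08 in the KO arrays. The lowest WT array, replicate 1, was thus above the highest KO array, replicate 4. Because these are bulk samples, fewer cells of a type and less RNA per cell cannot be told apart.

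**Figure D1:**
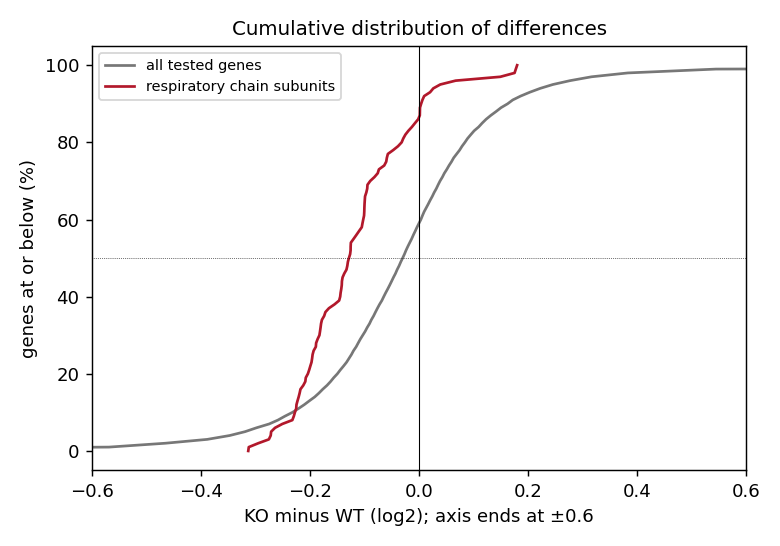
Cumulative share of genes (vertical axis, in percent) at or below a given KO minus WT difference (horizontal axis, log2), for the 75 tested respiratory chain subunits in red and all 11585 tested genes in grey. The red curve lies to the left of the grey one except at its lowest end, where the curves cross, and its median is -0.13 log2 against -0.03 for all tested genes.

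The number of called subunits depended on the arrays used, and most adjusted p of called subunits lay close to the threshold. Of the 16 called subunits only 4, Ndufa9, Sdhb, Uqcrq and Cox6b1, were called in every fit with 1 array fewer. Leaving out KO replicates 1, 2, 3 and 4 in turn gave 4, 9, 6 and 11 called subunits. Those were 5.33%, 12%, 8% and 14.7% of the subunits, against 4.41%, 5.03%, 5.28% and 6.22% of all genes called lower. The share without KO replicate 1 was thus near that of all genes. Leaving out WT replicates 1, 2, 3 and 4 in turn gave 13, 9, 7 and 9, or 17.3%, 12%, 9.33% and 12%. Of all genes 8.21%, 4.24%, 5.17% and 6.73% were then called lower. Without KO replicates 1 and 2 the count was 0, with 1.03% of all genes called lower, and the median difference of the subunits was -0.12. With each array centred on its own median 23 subunits fell and 0 rose, against 11.4% of all genes falling. The median difference stayed between -0.16 and -0.12 in all 18 alternative settings that give one. Counts were also taken by brightness. Of the 55 subunits with a mean log2 of at least 8, 14 fell and 0 rose, so that 25.5% fell, while 8.88% of all genes as bright fell and 5.29% rose. The KO mean was lower in 46 of the 55, against 60.8% of all genes as bright. Of the 20 dimmer tested subunits 2 fell, or 10.0%, near the 8.11% of all tested genes as dim. The KO mean was lower in 18 of these 20, against 57.2% of all tested genes as dim. The difference between bright and dim subunits was not tested.

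**Figure D2:**
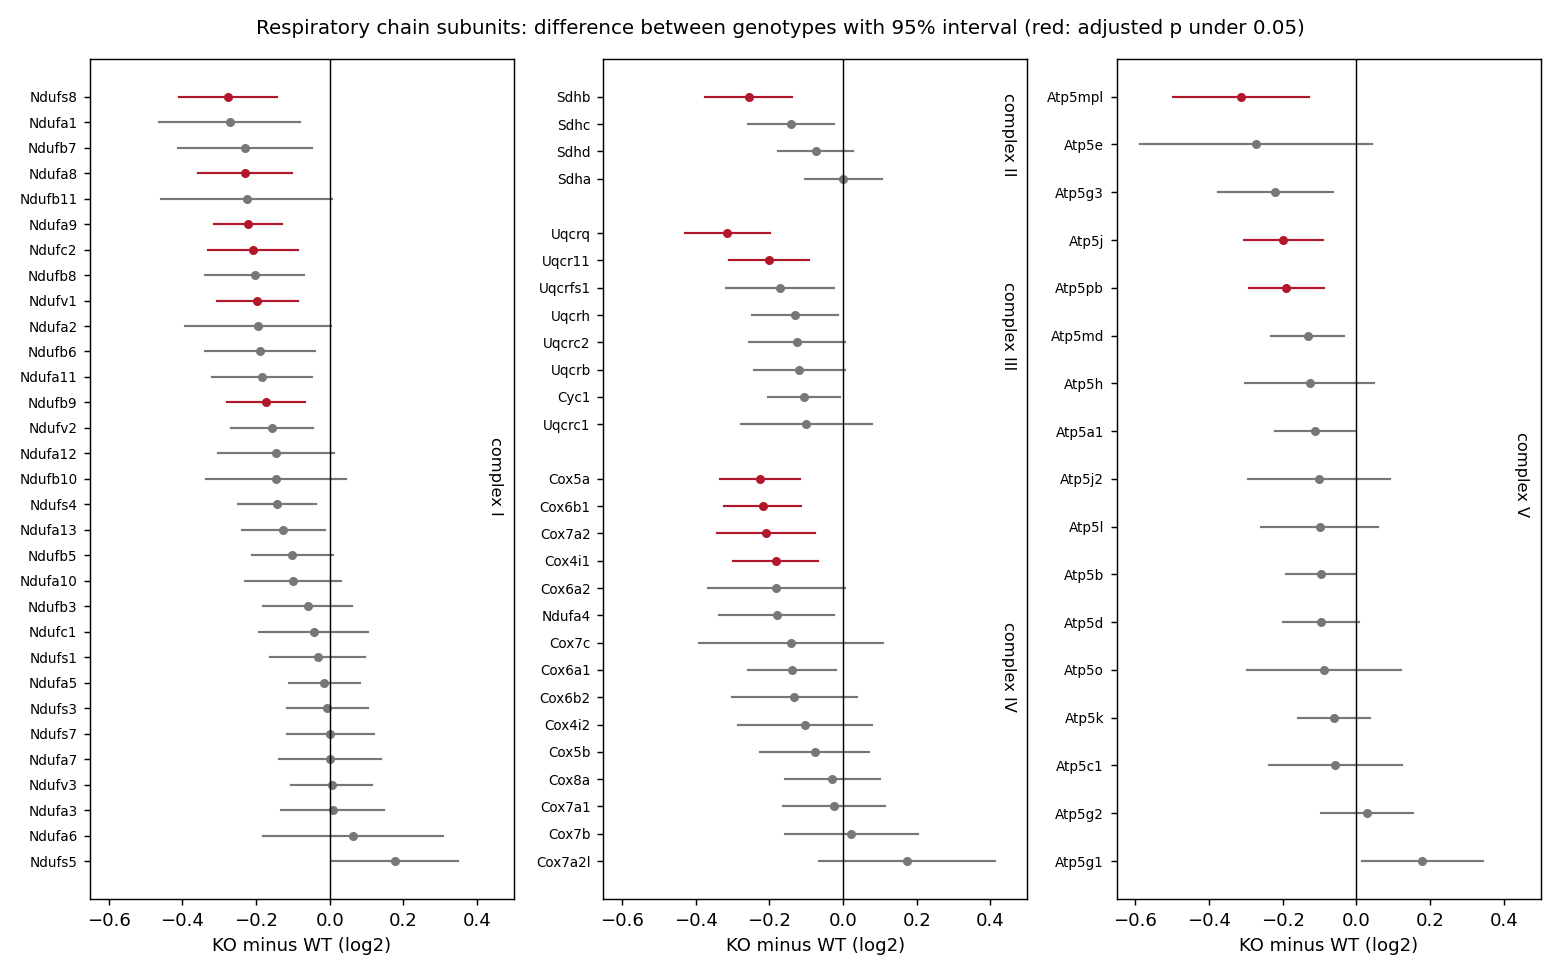
KO minus WT difference (horizontal axis, log2) of each of the 75 tested subunits, with its 95% interval, by complex. The 16 subunits in red passed the adjusted threshold, all on the negative side, and the highest points, Atp5g1 and Ndufs5, lie at 0.18 log2.

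Of the 31 complex I subunits, which oxidise NADH, 6 fell and 0 rose, and the median difference was -0.14 log2 (14 lower and 1 higher at an unadjusted p under 0.05). Ndufa9, an accessory subunit at the junction of the peripheral and membrane arms, was the most uniform. Its log2 level was 10.20, 10.19, 10.23 and 10.20 in WT and 9.98, 10.00, 9.96 and 9.99 in KO, a difference of -0.22 ± 0.042 SE (adjusted p = 0.00979). The KO and WT values lay far apart relative to their SDs of 0.016 and 0.019 (n = 4 each). Ndufs8, a core subunit that holds iron-sulfur clusters, read 10.24, 10.23, 10.29 and 10.28 in WT and 9.94, 9.86, 10.10 and 10.03 in KO, a difference of -0.28 ± 0.059 SE (adjusted p = 0.0167). Its KO arrays were more spread, yet all of them were lower than the WT arrays.

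Ndufa8, an accessory subunit facing the intermembrane space, read 9.59, 9.59, 9.64 and 9.78 in WT and 9.38, 9.41, 9.40 and 9.50 in KO, a fall by 14.7% (adjusted p = 0.0296). A second, dimmer probe set of Ndufa8 gave -0.22 log2 beside -0.23 for the one used. With the mean of both probe sets Ndufa8 was not called (limma, adjusted p = 0.0828). Ndufv1, the core subunit that binds NADH and flavin, read 9.99, 9.93, 10.00 and 9.92 in WT and 9.79, 9.83, 9.72 and 9.71 in KO, a fall by 12.7% (adjusted p = 0.0310). Ndufc2 and Ndufb9, accessory subunits of the membrane arm, fell by 13.4% and 11.3% (adjusted p = 0.0363 and 0.0400). In all 6 of these subunits the genotypes did not overlap. Here and below, selection by a small p favours such separation in called subunits, so it adds no separate support to a call. Only the call of Ndufa9 held in all of the fits with 1 array fewer (adjusted p from 0.0180 to 0.0325). The call of Ndufs8 depended on KO replicate 1 (adjusted p = 0.0519 without it). Ndufb9 was called in no such fit (0.0549 to 0.108). Ndufa8 was called only in those that dropped WT replicate 1 or 2 or KO replicate 4 (otherwise up to 0.0805), and Ndufv1 and Ndufc2 only in those that dropped WT replicate 4 or KO replicate 2 (otherwise up to 0.0810 and 0.0981).

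The rest of complex I was not called and was not uniform. Ndufb8, the flavoprotein subunit Ndufv2 and Ndufa1 came nearest, with differences of -0.20, -0.16 and -0.27 log2 and adjusted p of 0.0539, 0.0661 and 0.0669. In all of them the KO arrays lay below the WT arrays. At the other end Ndufs1, the largest core subunit, differed by -0.03 log2 with a 95% interval of -0.16 to 0.10 (adjusted p = 0.756). The interval of the core subunit Ndufs7 ran from -0.12 to 0.12, that of the core subunit Ndufs3 from -0.12 to 0.10 and that of the accessory subunit Ndufa5 from -0.11 to 0.08, and these 3 were named after their values were seen. None of these 4 intervals reached -0.28, the difference of Ndufs8. Among the 6 tested core subunits of the peripheral arm 2 fell, Ndufs8 and Ndufv1, or 33.3% against 8.53% of all tested genes. In 5 of the 6 the KO mean was lower. Ndufs5 had the only difference in complex I whose interval lay above 0, 0.18 log2 with an interval of 0.0047 to 0.35 (adjusted p = 0.162), at a dim level of 5.64 in WT.

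Complex II, succinate dehydrogenase, also belongs to the tricarboxylic acid cycle and has no subunit from mitochondrial DNA. Of its 4 subunits 1 fell and 0 rose (2 lower and 0 higher at an unadjusted p under 0.05). Sdhb, which carries the iron-sulfur clusters, read 9.20, 9.32, 9.29 and 9.37 in WT and 8.97, 9.09, 9.05 and 9.06 in KO, a difference of -0.26 ± 0.053 SE (adjusted p = 0.0142). The genotypes did not overlap, and the call held in each fit with 1 array fewer (adjusted p from 0.0123 to 0.0461). Sdha, the flavoprotein that binds succinate, read 10.61, 10.64, 10.61 and 10.69 in WT and 10.65, 10.69, 10.63 and 10.58 in KO. Its difference was 0.00 log2 with an interval of -0.10 to 0.10 (adjusted p = 0.987), and the sign of so small a difference turned under several settings. The membrane anchors Sdhc and Sdhd differed by -0.14 and -0.07 log2 (adjusted p = 0.105 and 0.318). Within 1 enzyme of 4 proteins, then, the interval of Sdhb, -0.37 to -0.14, and that of Sdha did not overlap, although the difference between the subunits was not itself tested.

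Complex III passes electrons from coenzyme Q to cytochrome c. Of its 8 tested subunits 2 fell and 0 rose, all 8 had a lower KO mean, and the median difference was -0.13 log2 (5 lower and 0 higher at an unadjusted p under 0.05). Uqcrq, a small subunit close to cytochrome b, had the lowest p of all members. Its log2 level was 7.61, 7.63, 7.65 and 7.58 in WT and 7.26, 7.22, 7.38 and 7.36 in KO, a difference of -0.31 ± 0.052 SE (adjusted p = 0.00556). With any 1 array dropped it was still called, at an adjusted p of at most 0.0214, and over all arrays it fell by 19.5%. Uqcr11, another small subunit, read 8.03, 8.04, 7.95 and 8.00 in WT and 7.81, 7.74, 7.77 and 7.88 in KO, a difference of -0.20 ± 0.049 SE (adjusted p = 0.0280). Neither subunit overlapped between the genotypes. Uqcr11 was no longer called once WT replicate 1, WT replicate 2, KO replicate 1, KO replicate 2 or KO replicate 3 was dropped (adjusted p of at most 0.0747).

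The catalytic subunits of complex III were not called. Uqcrfs1, the Rieske iron-sulfur protein, read 7.40, 7.70, 7.60 and 7.63 in WT and 7.40, 7.38, 7.43 and 7.44 in KO. The KO arrays lay close together, and WT replicate 1 lay among them. Its difference was -0.17 log2 (adjusted p = 0.116), and without WT replicate 1 it was -0.23 and passed the threshold (adjusted p = 0.0204). Cyc1, cytochrome c1, differed by -0.10 log2 (adjusted p = 0.145) with the genotypes not overlapping. Uqcrh, the hinge protein that helps cytochrome c bind, differed by -0.13 (adjusted p = 0.135), likewise without overlap. The pseudogene Uqcrh-ps1 lay under the intensity filter.

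Complex IV, cytochrome c oxidase, reduces oxygen. Of its 15 tested members 4 fell and 0 rose, with a median difference of -0.14 log2 (6 lower and 0 higher at an unadjusted p under 0.05). Cox5a, which binds the catalytic core on the matrix side, read 9.04, 9.13, 9.13 and 9.16 in WT and 8.85, 8.93, 8.86 and 8.92 in KO, a difference of -0.23 ± 0.048 SE (adjusted p = 0.0168). Cox6b1, on the intermembrane side, read 9.35, 9.46, 9.43 and 9.36 in WT and 9.17, 9.18, 9.15 and 9.23 in KO, a difference of -0.22 ± 0.047 SE (adjusted p = 0.0170). In both, each KO array lay below each WT array. Cox7a2, the form of subunit 7a found outside muscle, read 10.19, 10.09, 10.28 and 10.20 in WT and 9.93, 10.02, 9.90 and 10.07 in KO, a fall by 13.5% (adjusted p = 0.0453). Cox4i1, the main form of the subunit that senses ATP, read 9.93, 10.00, 9.87 and 9.92 in WT and 9.77, 9.69, 9.71 and 9.82 in KO, a fall by 11.8% (adjusted p = 0.0461). None of the 4 overlapped between the genotypes, although Cox7a2 and Cox4i1 came within 0.1 log2 of it.

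Cox6b1 was called in every fit with 1 array fewer (adjusted p of at most 0.0497), and Cox5a in all but the one that dropped KO replicate 1 (adjusted p = 0.0528). Cox7a2 was called only in those that dropped WT replicate 2 or KO replicate 4, and Cox4i1 only in the one that dropped KO replicate 4 (otherwise up to 0.117 for each). Cox6a1 and Ndufa4 differed by -0.14 and -0.18 log2 and were not called (adjusted p = 0.120 and 0.122). Forms of complex IV subunits that are known from muscle, heart, lung or testis gave low signals. Cox7b2, Cox8b, Cox8c and Ndufa4l2, a hypoxia-induced paralogue, lay under the filter, and Cox4i2, Cox6a2, Cox6b2 and Cox7a1 passed it with WT means of 6.56, 6.30, 5.96 and 5.97. Of these tested forms 0 were called, and Cox6a2, the one with the smallest p, differed by -0.18 log2 (adjusted p = 0.186). Cox7a2l, a paralogue of Cox7a2, had the highest positive difference of complex IV, 0.17 log2 with an interval of -0.07 to 0.41 (adjusted p = 0.320), and its arrays overlapped.

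Complex V makes ATP with a catalytic head and a proton-conducting base. Of 17 tested members 3 fell and 0 rose, with a median difference of -0.10 log2 (7 lower and 1 higher at an unadjusted p under 0.05). All called members belong to the stalk or the base. Atp5pb, subunit b of the peripheral stalk, read 10.10, 10.14, 10.22 and 10.15 in WT and 9.95, 9.97, 9.95 and 9.98 in KO, a difference of -0.19 ± 0.046 SE (adjusted p = 0.0273). Atp5j, subunit F6 of the same stalk, read 8.66, 8.70, 8.76 and 8.74 in WT and 8.45, 8.53, 8.53 and 8.56 in KO, a difference of -0.20 ± 0.048 SE (adjusted p = 0.0278). Both were lower in each KO array than in each WT array. Atp5mpl, a small membrane protein of the base, read 8.02, 8.38, 8.24 and 8.34 in WT and 7.86, 8.04, 7.87 and 7.97 in KO, a difference of -0.31 ± 0.082 SE (adjusted p = 0.0363). It was the one called subunit whose genotypes overlapped, WT replicate 1 lying below KO replicate 2.

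Of the fits with 1 array fewer, Atp5pb was called only in the one that dropped WT replicate 1 (otherwise up to 0.0711). Atp5j was called only in those that dropped WT replicate 1 or KO replicate 4 (otherwise up to 0.0788), and Atp5mpl only in those that dropped WT replicate 1 or KO replicate 2 (otherwise up to 0.0973). The main subunits of the catalytic head were not called. Atp5b, the catalytic beta subunit, read 12.58, 12.57, 12.62 and 12.60 in WT and 12.52, 12.47, 12.48 and 12.50 in KO, a difference of -0.10 log2 (adjusted p = 0.167). Atp5a1, the alpha subunit, differed by -0.11 log2 (adjusted p = 0.160). In both the genotypes did not overlap. Of the genes that encode the identical subunit c of the rotor ring, Atp5g3 differed by -0.22 log2 (adjusted p = 0.0690), Atp5g1 by 0.18 (adjusted p = 0.139) and Atp5g2 by 0.03 (adjusted p = 0.784). Atp5md, another small protein of the base, differed by -0.13 (adjusted p = 0.0817).

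**Figure D3:**
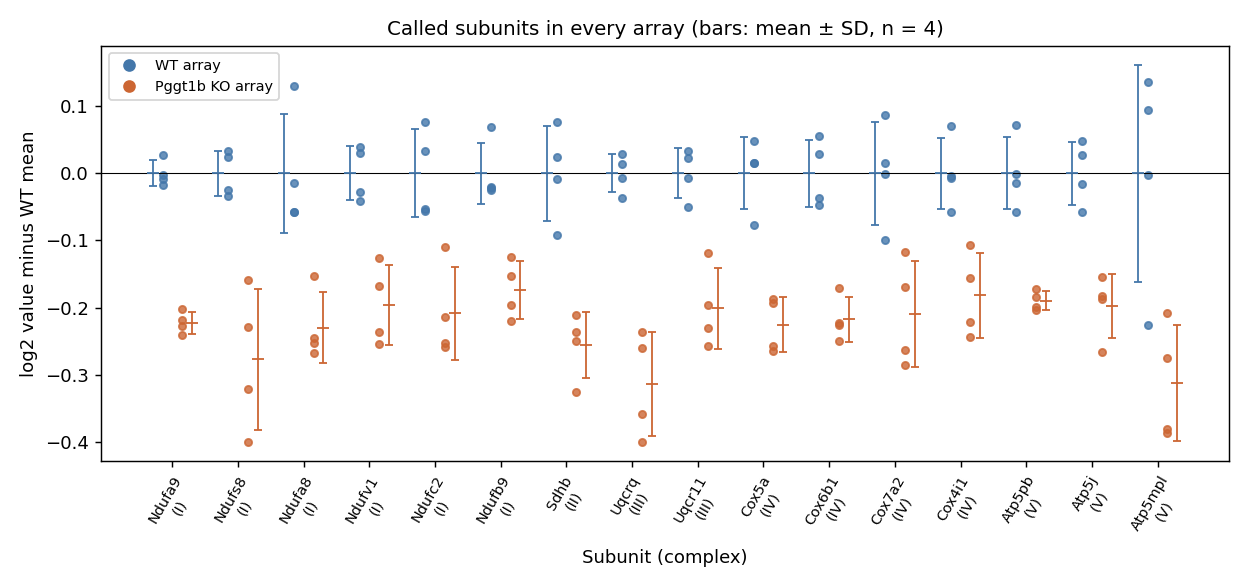
Log2 value of each of the 16 called subunits in every array, drawn as the difference from its WT mean (vertical axis, log2), with the mean ± SD of 4 arrays beside the points. The KO arrays (orange) lie below the WT arrays (blue) in 15 of the 16, and Atp5mpl is the exception. Selection of the subunits by a small p favours such separation.

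Probe sets limit what single subunits show. A total of 9 members had a second probe set. For Atp5h it gave 0.13 log2 against -0.13 for the one used, and for Ndufa11 0.0094 against -0.18, while for Ndufa12 both gave -0.14 or -0.15. Many respiratory chain genes have near-identical processed pseudogenes, so part of a signal may come from a copy, and how much was not tested. The 6 members under the filter, Cox7b2, Cox8b, Cox8c, Ndufa4l2 and the pseudogenes, had values from 2.70 to 4.95 in all arrays. The nearest member below the filter was Cox8b at a mean of 4.78, and the nearest above were Atp5j2 at 5.65 and Ndufs5 at 5.73.

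Promoters of the subunits were then searched for words that transcription factors of the nuclear mitochondrial program recognise, a property that did not enter the choice of members. The words were GCATGCGC (NRF-1, the product of Nrf1), CCGGAAGT (the ETS factor GABP) and AAGATGGCG (YY1), on either strand. The RefSeq promoter windows of the build GRCm38.p6 hold 250 bases before and 50 after a gene's start. They matched 64 of the 81 members with 69 windows. The NRF-1 word was in 14.5% of these windows against 2.71% of all 32851 windows and 5.34% of those of tested genes. The YY1 word was in 8.70% against 1.40% and 3.02%, and the GABP word in 7.25% against 3.89% and 8.17%. Of the 13 windows of called subunits 5 held at least 1 of the words, and of the 54 windows of tested subunits that were not called, 15 did. A match is a description of letters and not a measured site.

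The 120 bases before the start are shown for the 4 called subunits that hold a whole word there, as examples of that shared feature. Capitals mark the NRF-1 word in Ndufa8 (chr2:36049339-36049458, minus strand) and Sdhb (chr4:140961151-140961270, plus strand), the GABP word in Uqcr11 (chr10:80406822-80406941, minus strand) and the YY1 word in Atp5j (chr16:84834977-84835096, minus strand), each read 5′ to 3′ on the gene's strand. Each stretch holds 1 of the words, so none overlap.
Ndufa8: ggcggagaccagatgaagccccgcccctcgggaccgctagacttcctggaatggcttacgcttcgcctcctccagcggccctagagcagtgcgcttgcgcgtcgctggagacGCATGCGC
Sdhb: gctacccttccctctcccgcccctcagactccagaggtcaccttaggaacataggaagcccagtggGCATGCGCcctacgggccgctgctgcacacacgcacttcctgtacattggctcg
Uqcr11: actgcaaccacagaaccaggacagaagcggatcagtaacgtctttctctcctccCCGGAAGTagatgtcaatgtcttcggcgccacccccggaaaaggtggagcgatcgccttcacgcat
Atp5j: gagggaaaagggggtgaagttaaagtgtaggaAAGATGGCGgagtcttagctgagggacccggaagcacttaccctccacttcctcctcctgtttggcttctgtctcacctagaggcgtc

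The genes of the factors that read these words were not called lower. Of 19 tested regulators of mitochondrial biogenesis and mitochondrial DNA expression 0 fell and 2 rose (limma, with 1 lower and 2 higher at an unadjusted p under 0.05), and their median difference was -0.0037 log2. Gabpb2, a beta subunit of GABP, rose 1.15-fold (adjusted p = 0.0370), and Polg2, the accessory subunit of the mitochondrial DNA polymerase, rose 1.26-fold (adjusted p = 0.0404). Gabpb1, the other beta subunit, differed by -0.15 log2 (adjusted p = 0.164). Chosen after their values were seen, because the words above are theirs, Nrf1 differed by -0.0037 log2 (adjusted p = 0.975), Gabpa by -0.08 (adjusted p = 0.424) and Yy1 by -0.05 (adjusted p = 0.566). Tfam, which packages mitochondrial DNA and was also named after its value was seen, differed by -0.12 (adjusted p = 0.183).

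For subunits encoded in mitochondrial DNA no difference passed the threshold. Of 10 tested 0 fell and 0 rose (limma, with 0 lower and 0 higher at an unadjusted p under 0.05), 7 had a higher KO mean, and the median difference was 0.03 log2. The other 3 of the 13 listed, COX2, ATP6 and ATP8, were not found among genes with a single-symbol probe set. The result therefore covers no complex V subunit from mitochondrial DNA. ND5 and CYTB, subunits of complexes I and III, differed by 0.07 log2 each and ND3, of complex I, by -0.05 (adjusted p = 0.422, 0.430 and 0.589). The mean level of the 10 was 12.39, 12.39, 12.46 and 12.42 in WT and 12.39, 12.46, 12.45 and 12.42 in KO, with the genotypes overlapping. Except for ND6, at a WT mean of 8.23, these genes stood between 12.66 and 13.17 in WT, near the highest value on the arrays, 13.56. Whether so bright a signal hides a difference was not tested, nor was the difference between nuclear and mitochondrial subunits as groups.

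Other nuclear genes of the mitochondrion were examined in the same way. Of 18 tested genes of the tricarboxylic acid cycle and pyruvate entry 3 fell and 0 rose, so that 16.7% fell against 8.53% of all tested genes. The median difference of the 18 was -0.10 log2 (8 lower and 0 higher at an unadjusted p under 0.05). Mpc1, of the pyruvate carrier, fell by 0.34 log2, Pdhb, of pyruvate dehydrogenase, by 0.18 and Pdhx, of the same complex, by 0.29 (limma, adjusted p = 0.0318, 0.0346 and 0.0466). Of 48 assembly factors 6 fell and 0 rose, so that 12.5% fell against 8.53% of all tested genes, with a median of -0.09 (13 lower and 0 higher at an unadjusted p under 0.05). Sdhaf1, which inserts the iron-sulfur clusters of Sdhb, had the smallest p among them, with a difference of -0.42 ± 0.087 SE (adjusted p = 0.0137), followed in order of p by Cox19 and Nubpl, factors of complexes IV and I, at -0.30 and -0.25 (adjusted p = 0.0331 and 0.0361). Of 14 carriers and regulators of the inner membrane 3 fell and 0 rose (4 lower and 1 higher at an unadjusted p under 0.05). The 3 that fell were 21.4% of the list, against 8.53% of all tested genes. They were the ADP/ATP carriers Slc25a5 and Slc25a4, by 0.18 and 0.20 log2, and Atpif1, the inhibitor of the ATP synthase, by 0.23 (adjusted p = 0.0264, 0.0460 and 0.0352).

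Coenzyme Q and cytochrome c carry electrons between the complexes. Of 13 tested genes for their supply 1 fell and 0 rose, with a median difference of -0.08 log2, and the share that fell, 7.69%, was near the 8.53% of all tested genes (4 lower and 1 higher at an unadjusted p under 0.05). Coq10a, a coenzyme Q binding protein, fell by 0.21 log2 (adjusted p = 0.0310). Coq2, which joins the isoprenoid tail to the ring, stood 0.22 log2 higher (adjusted p = 0.0625), and Cycs, cytochrome c, differed by -0.14 (adjusted p = 0.0953). Neither passed the threshold.

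**Figure D4:**
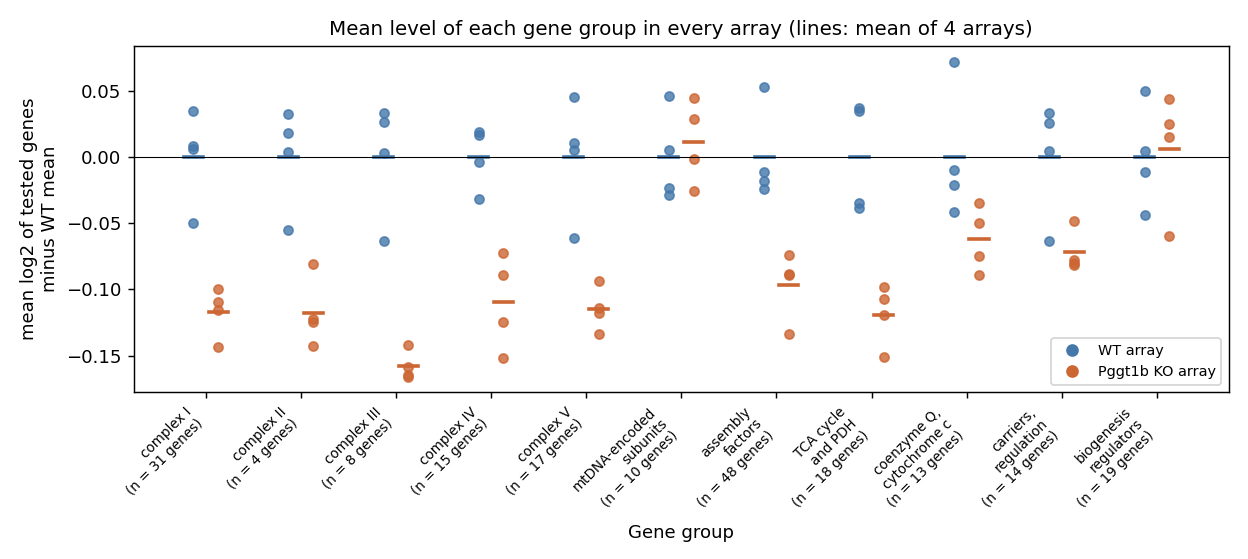
Mean log2 level of the tested genes of each group in every array, drawn as the difference from the WT mean (vertical axis, log2); short lines are the mean of 4 arrays. KO arrays (orange) lie below WT arrays (blue) in complexes I to V, the assembly factors and the tricarboxylic acid cycle group, and overlap them in the mitochondrial DNA-encoded subunits, the coenzyme Q group, the carriers and the biogenesis regulators.

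Other measures moved between the genotypes as well. Of 23 tested cell cycle genes 11 fell and 0 rose (22 lower and 0 higher at an unadjusted p under 0.05). The share that fell was 47.8%, against 8.53% of all tested genes. The smallest p were those of the replication genes Mcm2, Rrm1 and Mcm5 at -0.44, -0.41 and -0.55 log2 (limma, adjusted p = 0.000745, 0.00163 and 0.00174). The mean level of the 23 genes was 8.46, 8.57, 8.49 and 8.15 in WT and 7.96, 7.87, 7.98 and 8.18 in KO. WT replicate 4 and KO replicate 4 were thus alike in it. The part of proliferation in the result was not tested.

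Markers of an earlier thymocyte stage were also compared. Of 5 double-positive stage markers 1 fell, Cd8a, at -0.74 log2 (limma, adjusted p = 0.0354), or 20% against 8.53% of all tested genes. The other 4 were not called. Dntt differed by -0.30 without overlap (adjusted p = 0.107), while Cd8b1, Rag2 and Ptcra overlapped between the genotypes. The summed log2 level of the 5 lay between 39.9 and 41.5 in WT arrays and between 38.1 and 39.8 in KO arrays. That gap was narrow, and the sum includes Cd8a. The CD8 markers summed to between 34.3 and 35.6 in WT and between 32.8 and 34.4 in KO. Of these 4 markers 1, again Cd8a, fell, or 25% against 8.53% of all tested genes. Pecam1 rose among the 8 epithelial, stromal and endothelial markers, whose sums, 51.7 to 51.9 in WT and 51.3 to 52.5 in KO, overlapped. The sums of the myeloid and dendritic markers, 43.6 to 44.8 and 42.8 to 45.7, and of the B cell markers, 26.5 to 27.3 and 26.1 to 27.1, overlapped likewise. The heat-shock and dissociation genes averaged 8.19, 8.54, 8.82 and 8.70 in WT and 9.27, 9.07, 8.06 and 8.99 in KO. Of the 14 tested 1 fell, or 7.14%, near the 8.53% of all tested genes, and 1 rose. When the averaged level of Hspa1a and Hspa1b entered the fit, 9 subunits fell and 0 rose, against 4.52% of all genes falling, and the median difference was -0.14 log2. The part of cell stage in the result was not tested.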

How the data were processed

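The authors deposited 1 table of RMA values, on the log2 scale, for gene-level probe sets of 8 whole-transcript arrays. RMA was run in Expression Console 1.1 from Affymetrix, per the submitters' processing notes. Per the labels' protocols, nanogram amounts of RNA were amplified and biotinylated. The sources used here name no genome build or filter. The table holds 41345 probe sets, from 2.14 to 13.56, of which 23521 have 1 gene symbol in the platform annotation. The brightest probe set stood for each gene. The number of arrays limits the precision, and background signal compresses differences of dim genes.

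KO was compared with WT in limma 3.58.1 (R 4.3.3; lmFit and eBayes, two-sided, genotype only). Differences are KO minus WT in log2, with the fit's standard error (SE) and 95% intervals. The fit was tested on simulated data. The members and the 15 lists of pathway and marker genes were chosen with earlier results of these data known. Named are all called members, up to 3 more per complex by smallest p, central subunits of each complex, members under the filter, and up to 3 genes of each other list. Alternatives covered the filter, the probe set, scaling, weights, prior, covariates, threshold and single arrays. Promoter sequences come from RefSeq, GRCm38.p6.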

Additional observations from a re-analysis of the deposited data

Results flagged for a closer look

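Of 80 groups of 4 arrays examined, 1 held an array far from the others, where chance gives about 1 in 20. In Ndufb9 WT replicate 3 stood at 10.21 log2, while the next highest WT array was at 10.12 and the lowest at 10.11. The gap took up 0.954 of the range of the WT arrays. Without that array the difference of Ndufb9 was no longer called, as was so without any other single array.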

How the results depend on the processing

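The count of 16 subunits lower in KO was 6 with no intensity filter, or 7.41% against 2.51% of all tested genes (limma). It was 9 with the Hspa1a and Hspa1b mean as a covariate, or 12% against 4.52%. At an adjusted p under 0.01 it was 2, or 2.67%, near the 2.07% of all tested genes. Without KO replicates 1 and 2 it was 0, against 1.03%, and it ran from 4 to 13 with 1 array left out. A stricter threshold can only lower the count. Why the count was lower in the rest of these settings was not tested. In the other settings it was 13 to 23, and no setting called a subunit higher. The median difference kept its sign throughout. Differences near 0 changed sign. That of Sdha was -0.000572 after a second quantile normalization, -0.0327 with arrays centred, -0.0038 with the covariate, -0.0277 without KO replicates 1 and 2, and from -0.0145 to 0.0195 with 1 array left out. That of Ndufs1 ran from -0.0740 to 0.000106 with 1 array left out. No paired analysis was possible because replicate numbers follow the order of deposit and pair no samples. Signal close to background limits Ndufs5, Atp5j2 and the tissue-restricted forms.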
